A study of Mus musculus with 10 samples.

Results

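Klhl7, Git1, Ttbk1, Limd1, Eif4e3, Tarsl2, Ckap5 and Acsl1 are 8 mouse genes whose RNA was far lower in Neuro2a cells carrying a zinc-finger protein aimed at SCN9A than in cells carrying mCherry, and about as high in cells carrying dCas9 aimed at the same gene as in their own control. They were selected on those 2 measured differences, out of 55401 listed genes, of which 12899 had enough reads to be tested in the zinc-finger comparison. All 8 passed that filter on low counts. Values of the 8 genes in both repressor comparisons are therefore given as a description, with no test.

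Neuro2a is a mouse neuroblastoma line, and all 10 libraries came from wild-type Neuro2a cells transfected with plasmid with Lipofectamine. The groups were dCas9-empty (3 libraries), dCas9-SCN9A (3 libraries), mCherry, a red fluorescent protein (2 libraries), and ZF-SCN9A (2 libraries). The purpose stated for the series was to measure expression changes when SCN9A, the gene of the sodium channel Nav1.7, is knocked down by either protein. What dCas9-empty lacks, where each repressor binds, which effector domain it carries and whether replicates were separate cultures are not stated in the labels. The p-values below thus capture the scatter among these libraries alone, and that scatter may be technical.

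A zinc-finger repressor reads DNA through a row of small protein modules, each contacting a few bases, whereas dCas9, a Cas9 that cannot cut, is brought to its site by a guide RNA. Either can lower the RNA of a gene when it, or a silencing domain fused to it, sits near the start of that gene. Because the 2 proteins recognise DNA in different ways, they need not share sites elsewhere in the genome. Scn9a itself was lower with both, at 28.9% of the mCherry level with ZF-SCN9A and 38.4% of the dCas9-empty level with dCas9-SCN9A.

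The genes have unlike roles. Klhl7 encodes a substrate adaptor of a cullin-3 ubiquitin ligase, and Git1 a scaffold and ARF GTPase-activating protein that works with PIX and PAK proteins. Ttbk1 encodes a neuronal kinase of tau and tubulin, and Limd1 a LIM-domain scaffold of the zyxin family that takes part in Hippo signalling. Eif4e3 encodes an mRNA cap-binding protein of the eIF4E family and Tarsl2 a threonyl-tRNA synthetase. Ckap5 encodes a microtubule polymerase that acts at growing microtubule ends and the spindle, and Acsl1 an enzyme that joins long-chain fatty acids to coenzyme A.

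In the GENCODE M21 annotation of GRCm38 the 8 genes lie on 8 different chromosomes. Klhl7 (ENSMUSG00000028986) spans chr5:24100605-24160792 on the plus strand, Git1 (ENSMUSG00000011877) chr11:77493562-77507786 on the plus strand, Ttbk1 (ENSMUSG00000015599) chr17:46442448-46487675 on the minus strand, and Limd1 (ENSMUSG00000025239) chr9:123478706-123521552 on the plus strand. Eif4e3 (ENSMUSG00000093661) spans chr6:99625135-99666771 on the minus strand, Tarsl2 (ENSMUSG00000030515) chr7:65644898-65692091 on the plus strand, Ckap5 (ENSMUSG00000040549) chr2:91526762-91620664 on the plus strand, and Acsl1 (ENSMUSG00000018796) chr8:46471037-46536051 on the plus strand. Ckap5 shares its chromosome with Scn9a (ENSMUSG00000075316), at chr2:66480080-66634962 on the minus strand. Their merged exons measured 2.52 kb in Eif4e3 to 14.1 kb in Ttbk1, with a median of 6.38 kb against 4.32 kb over the genes tested.

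The promoter stretches below show the longest run of letters that each gene shares, on either strand, with the 250 bases before the start of Scn9a. They were taken from RefSeq (GRCm38.p6), which held windows for 6 of the 8 genes. Limd1 and Eif4e3 had none. RefSeq and GENCODE starts did not always coincide. The RefSeq starts of the Git1 windows lay upstream of its GENCODE start, at -274 and -150 bases, and that of Klhl7 at -15 bases. Scn9a is shown whole and 3 of the genes by 60 bases each: Ttbk1 with the longest shared run, Git1 with the next, and Klhl7, which had the largest fall. Capitals mark the shared run, and in Scn9a they mark the one shared with Ttbk1. The coordinates are chr2:66634963-66635212 (minus strand) for Scn9a, chr17:46487850-46487909 (minus strand) for Ttbk1, chr11:77493175-77493234 (plus strand) for Git1 and chr5:24100422-24100481 (plus strand) for Klhl7.
Scn9a: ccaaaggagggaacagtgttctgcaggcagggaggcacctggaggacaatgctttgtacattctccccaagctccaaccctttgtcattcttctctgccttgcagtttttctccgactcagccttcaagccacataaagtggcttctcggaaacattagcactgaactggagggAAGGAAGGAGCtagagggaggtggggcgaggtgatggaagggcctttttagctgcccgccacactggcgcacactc
Ttbk1: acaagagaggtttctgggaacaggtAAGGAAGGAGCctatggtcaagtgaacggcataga
Git1: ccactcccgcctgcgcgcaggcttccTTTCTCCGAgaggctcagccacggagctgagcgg
Klhl7: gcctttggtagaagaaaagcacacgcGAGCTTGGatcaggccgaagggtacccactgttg

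The run AAGGAAGGAGC in Ttbk1 was 11 bases long and began 209 bases before its start, and 76 bases before that of Scn9a. Of the 32850 other windows in the table, 5.32% shared a run at least that long with Scn9a. The run in Git1 was 9 bases long, a length that 49.6% of windows reached, and Klhl7 matched Scn9a over 8 bases on the opposite strand, as 90.2% of windows did. Ckap5 and Acsl1 shared 8 bases and Tarsl2 shared 7, against a median of 8 over all windows. With the 50 bases after the start included, the 6 genes shared 8 to 11 bases with Scn9a, against a median of 9. Among themselves, the 15 pairs of the 6 genes shared runs of 8 to 11 bases.

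In base composition the Scn9a window had 54.4% G and C and 5 CpG pairs, against medians of 52.4% and 6 over all windows. Among the first windows of the 6 genes, G and C made up 51.6% in Ttbk1, 55.2% in Ckap5, 58.8% in Klhl7, 66.8% in Tarsl2, 68.8% in Git1 and 72.0% in Acsl1. Git1 and Acsl1 had a second window each, which made 8 windows. Those of Git1 overlap each other, and the second of Acsl1 belongs to a start 19929 bases inside the gene. A GC box, searched as GGGCGG on both strands, was present in 6 of the 8 windows, from 5 of the 6 genes, and in 32.7% of all windows. The windows counted for that share were not limited to genes tested here, so no enrichment is read from it. The letters CCAAT occurred in 3 of the 8 windows, the first of Git1, that of Ckap5 and the second of Acsl1, and in 33.9% of all windows. Neither TATAAA, held by 12.4% of windows, nor TGACGTCA, held by 1.55%, was found in these windows of the 6 genes. TATAAA and TGACGTCA do not overlap the other motifs in letters. These matches describe letters within the windows and not sites of binding.

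Sums of gene counts ranged from 15356843 to 18984566 in the dCas9 libraries, were 6588126 and 7478956 in the mCherry libraries, and were 6297752 and 4412097 in the ZF-SCN9A libraries. The zinc-finger comparison thus rested on fewer libraries and shallower ones. Levels are given as CPM, the counts per 1000000 reads assigned to genes, with TMM scaling over the 10 libraries. Of 15 markers of sympathoadrenal neuroblasts, none was at 0 in every library, and their summed level was 3382 to 3404 CPM in ZF-SCN9A and 3405 to 3420 in mCherry. Between those groups 3 of the 14 tested were lower (Gata2, Isl1 and Hand2) and 2 higher (Dbh and Chga) by edgeR's quasi-likelihood test. Of all genes tested there, edgeR called 4.72% in either direction. Limma-voom also called 3 and 2 of these markers, and DESeq2 called 1 lower and 0 higher. The summed level of the neuroblast markers was 4576 to 4873 CPM in dCas9-empty and 4546 to 5034 in dCas9-SCN9A. In mCherry against dCas9-empty edgeR called 8 of the 14 lower and 1 higher, where 37.3% of all genes were called. Summed fibroblast markers stood at 15.5 to 21.2 CPM in ZF-SCN9A and 14.3 to 18.3 in mCherry, immune markers at 2.18 to 2.44 and 1.04 to 2.21, endothelial markers at 22 to 22.4 and 17.4 to 19.9, and glial markers at 31.2 to 36.4 and 31.6 to 32.9. In ZF-SCN9A against mCherry 3 of 6 fibroblast, 1 of 5 immune, 2 of 4 endothelial and 2 of 5 glial markers could be tested. Of those, Col1a1 was the 1 marker that edgeR called, in the higher direction. DESeq2 and limma-voom did not call it. The part of these marker differences in the results on the 8 genes was not tested, and in bulk RNA fewer cells of a type and less RNA per cell cannot be told apart.

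Together the 8 genes summed to 879 CPM in dCas9-empty, 839 CPM in dCas9-SCN9A and 881 CPM in mCherry, and to 311 CPM in ZF-SCN9A. Single genes stood at 26.6% to 39.6% of their mCherry mean in ZF-SCN9A (median 34.5%), and at 90.3% to 103% of their dCas9-empty mean in dCas9-SCN9A (median 94.2%). The plot of levels by library shows each gene's 10 values.

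**Figure D1:**
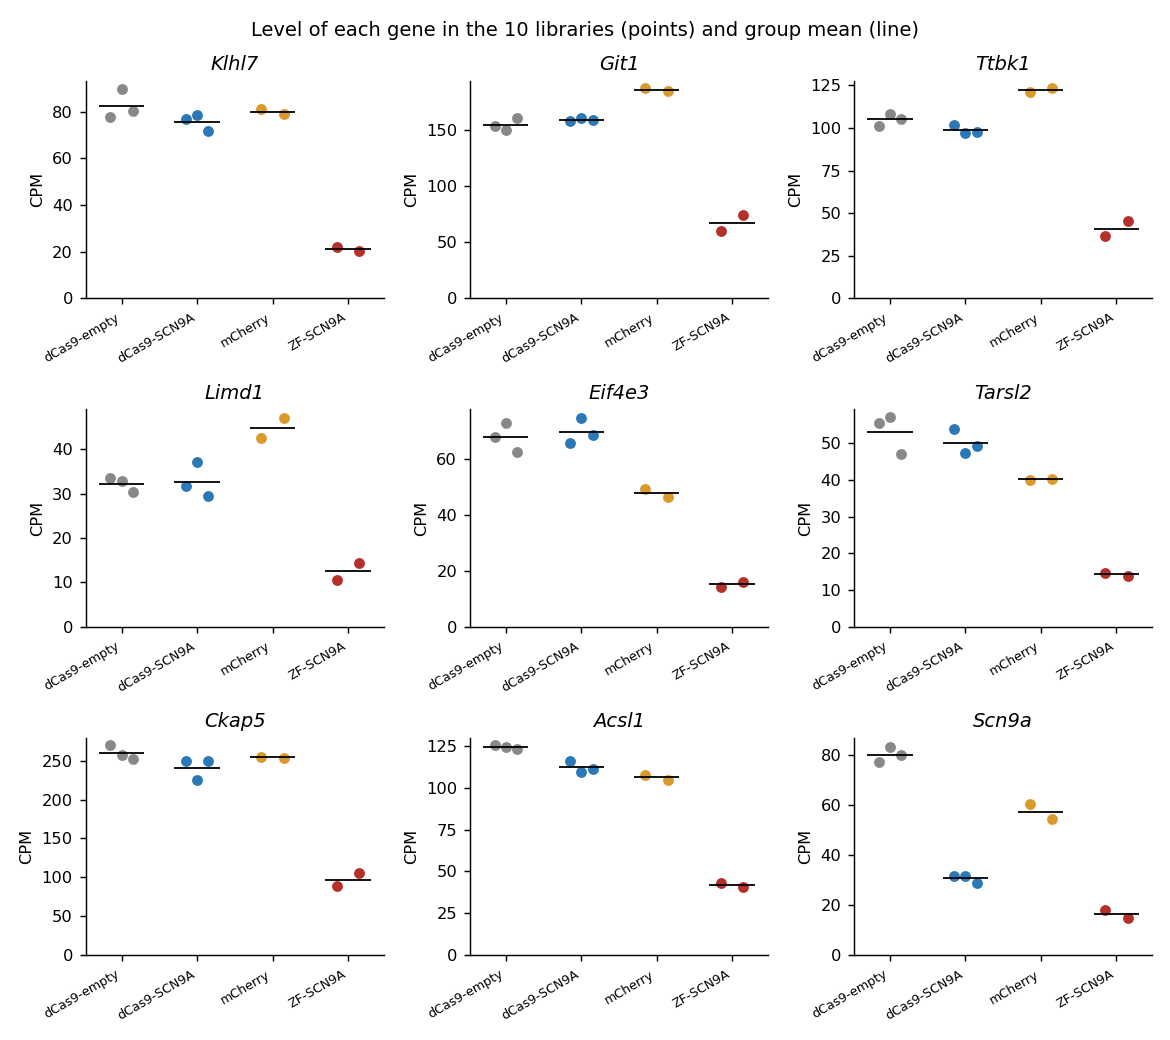
Level in CPM (linear axes from 0) of the 8 genes and of the target Scn9a in each of the 10 libraries, by group; points are libraries and lines are group means. The ZF-SCN9A points lie below every other point of the same gene in all 8 genes, whereas Scn9a is low in dCas9-SCN9A as well.

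Of the protein-turnover and signalling genes, Klhl7 had 77.7, 89.7 and 80.3 CPM in dCas9-empty, 76.9, 78.4 and 71.7 CPM in dCas9-SCN9A, 81.0 and 79.0 CPM in mCherry, and 22.1 and 20.5 CPM in ZF-SCN9A. Only the ZF-SCN9A libraries were low, and the groups of the dCas9 comparison overlapped. The log2 fold change of Klhl7 was -1.90 ± 0.12 (SE of the fit) with ZF-SCN9A, the largest fall among the 8 genes, and -0.12 ± 0.06 with dCas9-SCN9A. Its ZF-SCN9A values rest on 145 and 94 reads.

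Git1 had 154, 150 and 160 CPM in dCas9-empty, 157, 161 and 158 CPM in dCas9-SCN9A, 187 and 185 CPM in mCherry, and 60.1 and 74.3 CPM in ZF-SCN9A. Its mCherry libraries were the highest of all 10, and its ZF-SCN9A libraries differed from each other more than any other replicates of this gene. The log2 fold change was -1.48 ± 0.08 with ZF-SCN9A and 0.04 ± 0.05 with dCas9-SCN9A.

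Ttbk1, the tau kinase gene, had 101, 109 and 105 CPM in dCas9-empty, 102, 97.4 and 97.7 CPM in dCas9-SCN9A, 121 and 123 CPM in mCherry, and 36.5 and 45.3 CPM in ZF-SCN9A. As for Git1, mCherry was highest and the second ZF-SCN9A library lay above the first. Its log2 fold change was -1.59 ± 0.10 with ZF-SCN9A and -0.09 ± 0.05 with dCas9-SCN9A.

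Limd1, the least abundant of the 8 in most libraries, had 33.6, 32.7 and 30.4 CPM in dCas9-empty, 31.8, 37.1 and 29.4 CPM in dCas9-SCN9A, 42.4 and 47.1 CPM in mCherry, and 10.7 and 14.4 CPM in ZF-SCN9A. The ZF-SCN9A libraries stood at 23.8% and 32.1% of the mCherry mean, the widest relative gap between these libraries among the 8 genes, on 70 and 66 reads. The log2 fold change of Limd1 was -1.86 ± 0.15 with ZF-SCN9A, and -2.06 and -1.63 at the extremes when a library was left out. With dCas9-SCN9A it was 0.02 ± 0.09.

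Of the translation genes, Eif4e3 had 67.9, 72.8 and 62.3 CPM in dCas9-empty, 65.8, 74.6 and 68.4 CPM in dCas9-SCN9A, 49.2 and 46.5 CPM in mCherry, and 14.3 and 16.1 CPM in ZF-SCN9A. Unlike Limd1, it was lower in mCherry than in any dCas9 library. Its log2 fold change was -1.66 ± 0.15 with ZF-SCN9A and 0.04 ± 0.07 with dCas9-SCN9A. Of its exon bases 14.8% are shared with Gm20696 on the same strand, so reads there cannot be assigned to either with certainty.

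Tarsl2 had 55.5, 57.0 and 47.0 CPM in dCas9-empty, 53.8, 47.2 and 49.1 CPM in dCas9-SCN9A, 40.1 and 40.3 CPM in mCherry, and 14.6 and 13.9 CPM in ZF-SCN9A. The replicates of mCherry and of ZF-SCN9A lay close together, and mCherry was below all dCas9 libraries. The log2 fold change was -1.48 ± 0.15 with ZF-SCN9A and -0.09 ± 0.08 with dCas9-SCN9A.

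Ckap5, the most abundant of the 8 in CPM, had 270, 258 and 252 CPM in dCas9-empty, 249, 225 and 249 CPM in dCas9-SCN9A, 255 and 254 CPM in mCherry, and 89.0 and 105 CPM in ZF-SCN9A. Each dCas9-SCN9A library lay below each dCas9-empty library, and the control plasmids gave overlapping levels. The log2 fold change of Ckap5 was -1.39 ± 0.08 with ZF-SCN9A and -0.11 ± 0.06 with dCas9-SCN9A. Its ZF-SCN9A values rest on 585 and 484 reads, the most of the 8 genes.

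Acsl1, the fatty acid enzyme gene, had 125, 125 and 123 CPM in dCas9-empty, 116, 110 and 111 CPM in dCas9-SCN9A, 108 and 104 CPM in mCherry, and 42.9 and 41 CPM in ZF-SCN9A. Like Ckap5, it was lower in every dCas9-SCN9A library than in every dCas9-empty library, at 90.3% on average. The log2 fold change was -1.33 ± 0.10 with ZF-SCN9A, the smallest fall among the 8 genes, and -0.15 ± 0.05 with dCas9-SCN9A, the largest of the 8 in size. Of its exon bases 9.91% overlap Gm45244 on the opposite strand, and the counts used ignore strand.

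In ZF-SCN9A against mCherry the 8 genes had a median log2 fold change of -1.54, where the median over all genes tested was 0.00. All 8 were among the 358 genes called lower at an adjusted p under 0.05, which were 2.78% of those tested, and 4.72% were called in either direction. They took places 7 to 34 from the most negative of 12899, and Scn9a took place 12. The ZF-SCN9A and mCherry libraries did not overlap for any of the 8, a pattern that 23.5% of tested genes showed in the lower direction. From these counts nothing follows about the genes, since this comparison chose them.

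In dCas9-SCN9A against dCas9-empty the median log2 fold change of the 8 genes was -0.09, with a median size of 0.09, the same as the 0.09 over all genes. The 8 were not among the 0.041% of 14628 genes called by edgeR, and since small changes here were part of the choice, nothing is read from that. Ckap5 and Acsl1 had groups that did not overlap, in the lower direction, as 9.33% of all genes did. In the direct comparison of both changes, which uses all 10 libraries, the 8 genes differed by -1.89 (Limd1) to -1.19 (Acsl1), where 0.647% of all genes were called lower and 0.907% in either direction. The 8 genes are among those, but this difference is built from both changes they were chosen by, so it is a description and no test of them. For Scn9a that difference was -0.39 ± 0.15, with an adjusted p of 0.278 by edgeR's quasi-likelihood test. The controls of the 2 repressor comparisons are unlike. The dCas9-empty libraries held 131446 to 155738 reads of the plasmid entry dCCas9, while the mCherry libraries held 35 and 14 of the entry ZF. Changes that come with carrying any zinc-finger protein thus cannot be told apart here from those of its aim at SCN9A.

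**Figure D2:**
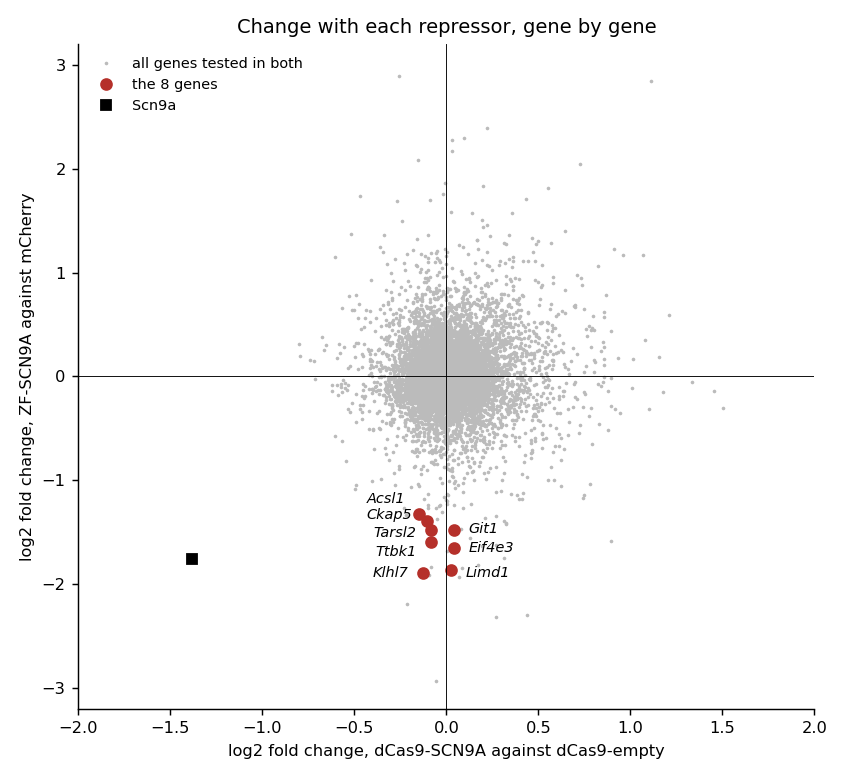
Log2 fold change with dCas9-SCN9A (horizontal) against that with ZF-SCN9A (vertical) for the 12833 genes tested in both; grey points are genes, red points the 8 genes and the black square Scn9a. The 8 genes lie between -1.90 and -1.33 on the vertical axis and between -0.15 and 0.04 on the horizontal axis, where Scn9a lies at -1.38.

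The edge of the choice was examined through genes with similar values. Besides the 8, there were 7 genes called lower with ZF-SCN9A whose fall was at least that of Acsl1 and whose dCas9 change was no further from 0. They were Rhod, Colgalt2, P2ry2, Adam15, Il4, Osgin1 and Sncg. Of these, 6 had a lower mCherry level than Tarsl2, the lowest of the 8 there; Adam15 had 70.9 CPM in mCherry and 19.8 CPM in ZF-SCN9A. Just outside the edge lay Stat2, a transcription factor of interferon signalling, at -1.31, and Tnfrsf13c and Stac, both at -1.27. The named set is therefore not every gene with this pattern, and abundance separates most of the others from it.

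Across the 10 libraries, likeness was measured as the Euclidean distance between a gene's log2 CPM relative to its own control group and the median profile of the 8 genes, over 15766 genes. The non-members nearest to that profile were P2ry2 (distance 0.291), Osgin1 (0.413), Stat2 (0.456), Stac (0.505) and Pogk (0.568). The profile is the median of the 8 genes themselves, so their own nearness to it, and the distance of 2.28 for Scn9a, restate the choice. P2ry2 and Osgin1 are low in abundance, with means of 3.62 and 3.17 CPM.

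The comparison of the control plasmids, mCherry against dCas9-empty, was not used to choose the genes, although their mCherry levels entered the choice through the zinc-finger comparison. The 8 genes did not move one way. Limd1, Git1 and Ttbk1 were higher in mCherry, Eif4e3, Tarsl2 and Acsl1 were lower, and Klhl7 and Ckap5 were not called. That made 6 of 8 called, against 37.3% of 15204 genes, and the median log2 fold change of the 8 was -0.05 against -0.01 over all genes. By mean CPM over the 10 libraries the 8 genes stood at percentiles 57.2 (Limd1) to 94.8 (Ckap5). The share over all genes was not matched for abundance, so no excess is read from it. Plasmid, depth and the arm of the study differ together here and cannot be told apart.

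Limd1 averaged 44.8 ± 3.33 CPM in mCherry (SD, n = 2) and 32.2 ± 1.69 CPM in dCas9-empty (SD, n = 3), with a log2 fold change of 0.47 ± 0.10 and an adjusted p of 0.00032 by edgeR, in its quasi-likelihood test, after Benjamini-Hochberg adjustment. In Git1 the change was 0.25 ± 0.06 (edgeR adjusted p = 0.00158) and in Ttbk1 0.21 ± 0.06 (edgeR adjusted p = 0.0117). All mCherry libraries of these 3 genes lay above all dCas9-empty libraries. Leaving out the second mCherry library ended the call of Ttbk1, at an edgeR adjusted p of 0.0735, as did dropping the filter on low counts, at 0.0519.

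In the lower direction, Eif4e3 averaged 47.9 ± 1.94 CPM in mCherry (SD, n = 2) and 67.6 ± 5.28 CPM in dCas9-empty (SD, n = 3), a log2 fold change of -0.51 ± 0.09 with an edgeR adjusted p of 2.82e-05. Tarsl2 changed by -0.41 ± 0.09 (edgeR adjusted p = 0.00107) and Acsl1 by -0.24 ± 0.06 (edgeR adjusted p = 0.00412). Again the libraries of the groups did not overlap. The call of Acsl1 ended with scaling by plain library size (edgeR adjusted p = 0.0736), with the strand column (0.138) and without the second mCherry library (0.0551).

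Klhl7 differed by -0.06 ± 0.07 (edgeR adjusted p = 0.588) and Ckap5 by -0.04 ± 0.06 (edgeR adjusted p = 0.623), and the sign of both turned with scaling by plain library size. Under that scaling all 15204 genes shifted by a median of 0.09 upwards, and the calls went from 3065 lower and 2609 higher to 2195 lower and 3806 higher. Directions of the 6 called genes held under it.

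**Figure D3:**
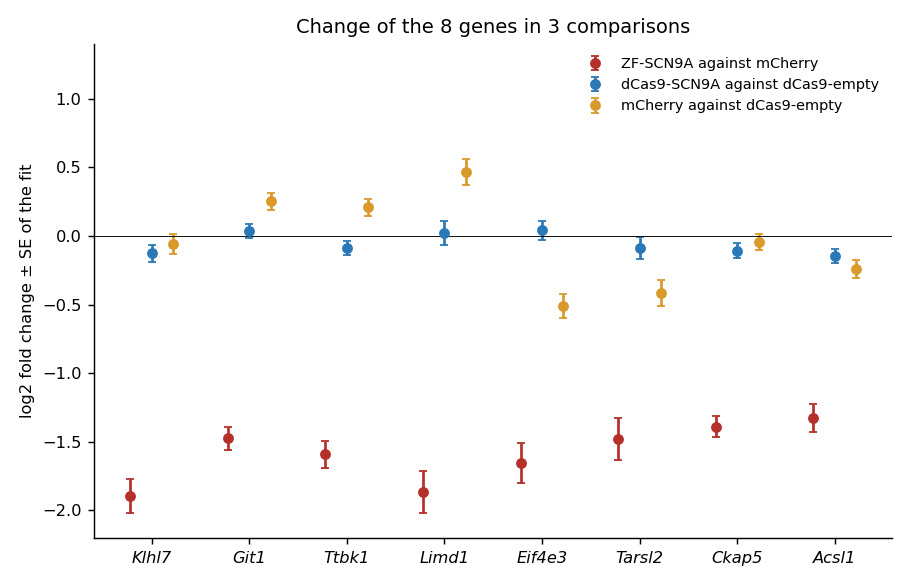
Log2 fold change with its SE for the 8 genes in 3 comparisons: ZF-SCN9A against mCherry (red), dCas9-SCN9A against dCas9-empty (blue) and mCherry against dCas9-empty (orange). Red points lie at -1.33 or below, blue points within 0.15 of 0, and orange points on both sides of 0, from -0.51 (Eif4e3) to 0.47 (Limd1).

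Divided by exon length, the order of the genes' levels in dCas9-empty ran Git1 (32.0 CPM per kb), Ckap5 (27.5), Eif4e3 (26.9), Klhl7 (20.9), Acsl1 (11.9), Tarsl2 (7.89), Ttbk1 (7.46) and Limd1 (5.36). Ckap5 and Eif4e3 overlapped between libraries, as did Tarsl2 and Ttbk1, and the other neighbours in the order did not. In ZF-SCN9A the order was Git1 (13.9 CPM per kb), Ckap5 (10.3), Eif4e3 (6.05), Klhl7 (5.37), Acsl1 (4.0), Ttbk1 (2.90), Tarsl2 (2.12) and Limd1 (2.08). There Tarsl2 and Limd1 overlapped. In mCherry, the control of ZF-SCN9A, the order was Git1 (38.4 CPM per kb), Ckap5 (26.9), Klhl7 (20.2), Eif4e3 (19.0), Acsl1 (10.1), Ttbk1 (8.68), Limd1 (7.44) and Tarsl2 (5.96), with no overlap between neighbours in the order. Git1 was first in these 3 groups, whereas the last place went to Tarsl2 in mCherry and to Limd1 in dCas9-empty.

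The ZF-SCN9A libraries did not differ from each other in 1 direction over the 8 genes. The first lay below the second in Git1, Ttbk1, Limd1, Eif4e3 and Ckap5 and above it in Klhl7, Tarsl2 and Acsl1, as in Scn9a. With the second library left out the median log2 fold change of the 8 genes was -1.68, and over all left-out libraries it ranged from -1.68 to -1.47. By exon length, with tested genes cut into 5 equal classes, Ttbk1, Ckap5 and Acsl1 belonged to the class of longest genes, whose median log2 fold change with ZF-SCN9A was -0.04. The class of shortest genes had a median of 0.05 and held none of the 8.

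Genes that start near the 8 were examined next, a measure the choice did not use. Within 200 kb of their starts 94 other genes were listed and 36 could be tested. In ZF-SCN9A against mCherry their log2 fold changes ran from -0.29 to 0.66 with a median of 0.12, and 22 were positive and 14 negative. Of the 36, 2 fell at an adjusted p under 0.05, where 2.78% of all genes did, and none rose. At an unadjusted p under 0.05, 5 were higher and 3 lower by edgeR; limma-voom also called 2 lower and none higher, and DESeq2 called none.

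The genes that fell were Fam126a, whose start lies 69.9 kb upstream of Klhl7, with a log2 fold change of -0.29 ± 0.09 (edgeR adjusted p = 0.0444), and Nufip2, 193 kb downstream of Git1, with -0.28 ± 0.08 (edgeR adjusted p = 0.0182). Both changes were far smaller than those of Klhl7 and Git1. The call of Fam126a ended without any 1 of the 4 libraries and under 6 of the other settings, with adjusted p up to 0.536 (DESeq2). That of Nufip2 ended without the first mCherry library or either ZF-SCN9A library, with DESeq2, with all 10 libraries fitted and with the strand column, at adjusted p up to 0.383 (DESeq2). The difference between the repressors was not called for either.

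The nearest tested genes on each side were closer still in several cases. Ankrd13b starts 3.88 kb upstream of Git1 on the other strand and had a log2 fold change of 0.16 ± 0.09, and Abhd15, 21.6 kb downstream, had 0.10 ± 0.56. Dnph1 starts 9.04 kb upstream of Ttbk1 on the other strand and had 0.15 ± 0.15, and Gm5093, 47.6 kb downstream, had -0.19 ± 0.35. Neither side of either gene was called.

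Nupl2, 64.4 kb downstream of Klhl7, had 0.28 ± 0.17. Beside Limd1, Lars2 at 112 kb upstream had -0.01 ± 0.33 and Sacm1l at 51.1 kb downstream had -0.13 ± 0.12. Foxp1, 144 kb downstream of Eif4e3 and its one tested neighbour, had -0.25 ± 0.09 with an edgeR adjusted p of 0.0796. None of these 4 was called.

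Tm2d3, which starts 46.3 kb downstream of Tarsl2 and shares 1.78% of the exon bases of Tarsl2, had 0.31 ± 0.16, and Tjp1, 117 kb upstream, had 0.01 ± 0.08. Beside Ckap5, Lrp4 had 0.66 ± 0.50 and Zfp408 0.37 ± 0.16, and beside Acsl1, Cenpu had 0.38 ± 0.20. All these neighbours were uncalled. In the dCas9 comparison edgeR called none of the 36 (5 at an unadjusted p under 0.05), and in the difference between repressors none (6 at an unadjusted p under 0.05); DESeq2 and limma-voom called none in either.

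**Figure D4:**
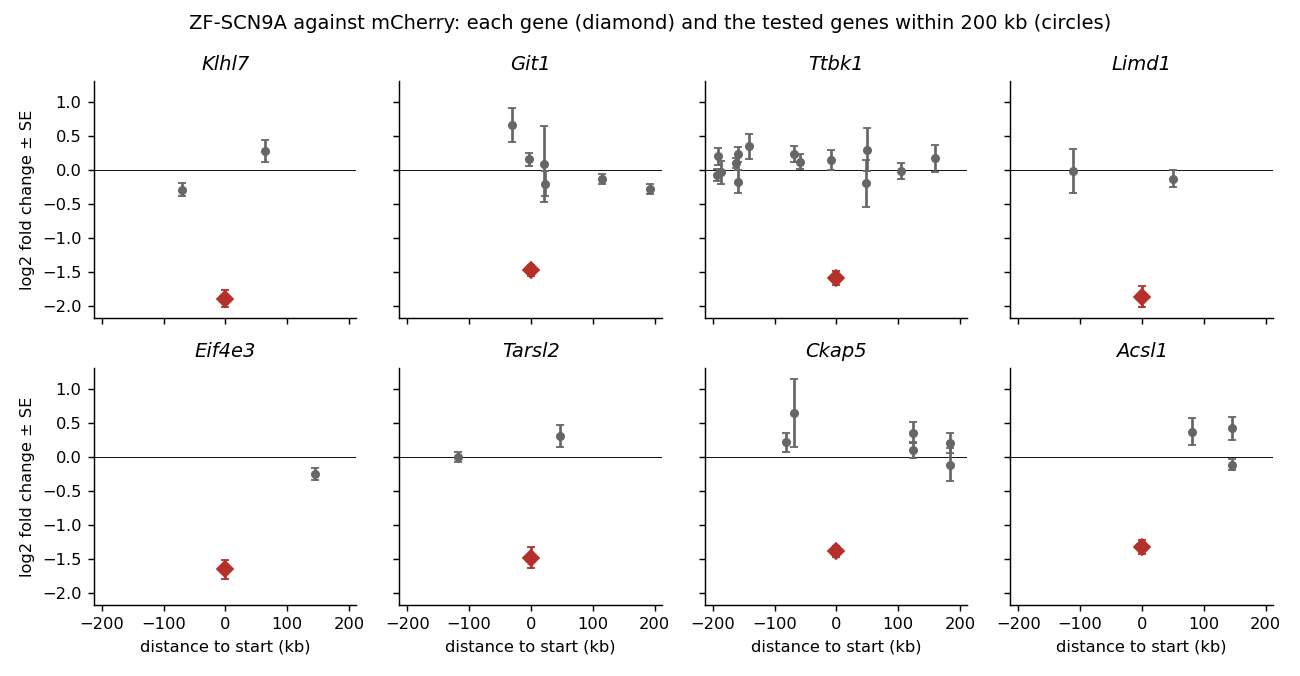
Log2 fold change with its SE in ZF-SCN9A against mCherry for each of the 8 genes (red diamonds, at 0 kb) and for the 36 tested genes whose starts lie within 200 kb (grey circles), by distance in kb along the direction of transcription of the named gene. Grey circles lie between -0.29 and 0.66, all above the diamonds.

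Family and pathway partners of the 8 genes were taken from 8 lists of 192 genes, of which 191 were matched and 174 could be tested with ZF-SCN9A. Of these 5 fell and 2 rose, with a median log2 fold change of -0.01, and 35 had an unadjusted p under 0.05. The share called lower was near that of all genes, 2.78%, and at an unadjusted p under 0.05 all 12899 genes gave 1084 lower and 1003 higher. DESeq2 called 3 lower and limma-voom 7 lower and 3 higher. In the dCas9 comparison none of 176 was called by edgeR (24 at an unadjusted p under 0.05) or limma-voom, and DESeq2 called 1.

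Among 24 tested genes of the KLHL and cullin-3 list, 1 fell with ZF-SCN9A and none rose (5 at an unadjusted p under 0.05; DESeq2 called 1 lower and limma-voom 1 in each direction), with a list median of -0.02. Klhl5, another Kelch-repeat adaptor, averaged 36.1 ± 1.45 CPM in mCherry (SD, n = 2) and 18.7 CPM in both ZF-SCN9A libraries, with a log2 fold change of -0.94 ± 0.15. Its change with dCas9-SCN9A was -0.14, and the difference between the repressors was -0.81 (edgeR adjusted p = 0.0018). Klhl24 was 0.31 ± 0.11 with ZF-SCN9A (edgeR adjusted p = 0.0572) and -0.24 with dCas9-SCN9A, and here the difference of 0.54 was called (edgeR adjusted p = 0.014). Cul3, the ligase scaffold, had -0.21 ± 0.07 with an edgeR adjusted p of 0.0688.

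Among 23 genes around GIT, PIX and PAK proteins, with a median of -0.03, Pak2 fell by 0.51 ± 0.09 on the log2 scale, from 105 ± 6.76 CPM in mCherry to 72.9 ± 6.41 CPM in ZF-SCN9A (SD, n = 2 each). Pak2 encodes a kinase that Rac and Cdc42 activate, and its difference between the repressors was -0.46 (edgeR adjusted p = 0.0218). That difference was not called without the first mCherry library (edgeR adjusted p = 0.239), without the second ZF-SCN9A library (0.236) or without the first dCas9-SCN9A library (0.0513). Git2, the paralog of Git1, had -0.03 ± 0.12 and Arhgef7, which encodes a PIX protein, -0.14 ± 0.09, neither of them called.

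None of 18 tested genes of the tau kinase and tau list was called by edgeR or DESeq2 with ZF-SCN9A, at a list median of -0.09. Limma-voom called 1 lower, and 5 had an unadjusted p under 0.05 by edgeR. The paralog Ttbk2 had -0.15 ± 0.12, and Mapt, which encodes tau, had -0.04 ± 0.06. Of 20 tested genes of the LIMD1 and Hippo list, with a median of -0.10, 1 fell: Lpp, a zyxin relative, at a log2 fold change of -0.52 ± 0.15 (edgeR adjusted p = 0.0128). That call ended without either ZF-SCN9A library or the second mCherry library, with DESeq2 and with the strand column, at adjusted p up to 0.362 (DESeq2). Wtip, of the same subfamily as Limd1, had 0.06 ± 0.19.

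In the cap-binding list of 16 tested genes, 1 rose with ZF-SCN9A, with a list median of -0.02. This was Eif4ebp1, which encodes an inhibitor of eIF4E, by 0.25 ± 0.07 (edgeR adjusted p = 0.0054). The call ended without either ZF-SCN9A library or the first mCherry library, with DESeq2 and with the strand column, at adjusted p up to 0.185. The related cap-binding genes Eif4e and Eif4e2 had -0.03 ± 0.07 and -0.14 ± 0.09. Of 24 aminoacyl-tRNA synthetase genes edgeR, DESeq2 and limma-voom called none, 3 had an unadjusted p under 0.05 by edgeR, and the list median was 0.05. Tars and Tars2, the cytosolic and mitochondrial threonyl-tRNA synthetase genes, had 0.06 ± 0.07 and 0.14 ± 0.11.

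None of 25 genes of microtubule growth and the spindle was called by edgeR, DESeq2 or limma-voom, 1 had an unadjusted p under 0.05 by edgeR, and the list median was 0.00. Tacc3, which encodes a partner that holds the Ckap5 protein at the spindle, had 0.02 ± 0.09. In the acyl-CoA list of 24 tested genes, with a median of 0.02, the Acsl1 relatives Acsl4 and Acsl3 fell, with log2 fold changes of -0.38 ± 0.07 and -0.36 ± 0.08, and Slc27a1, a fatty acid transporter gene, rose by 0.30 ± 0.10 (edgeR adjusted p = 0.0467).

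Acsl4 went from 382 ± 6.81 to 291 ± 1.09 CPM (SD, n = 2 each), and Acsl5 and Acsl6 had -0.08 ± 0.11 and 0.11 ± 0.12. The call of Acsl3 ended without the second ZF-SCN9A library (edgeR adjusted p = 0.147), without the first mCherry library (0.0561) and with DESeq2 (0.115). That of Slc27a1 ended under 8 of 13 alternatives, among them those without either ZF-SCN9A library or the first mCherry library and those with DESeq2, no filter, all 10 libraries and the strand column, at adjusted p up to 0.744. The difference between the repressors was not called for Acsl3, Acsl4 or Slc27a1.

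**Figure D5:**
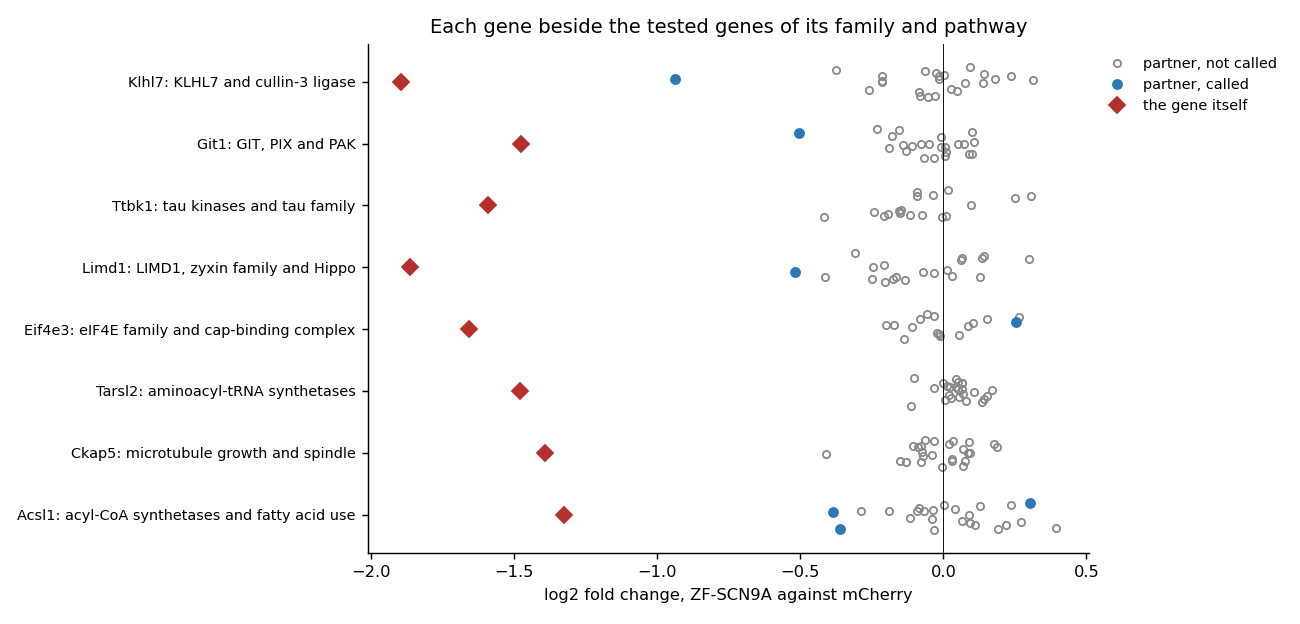
Log2 fold change in ZF-SCN9A against mCherry of each of the 8 genes (red diamonds) and of the 174 tested partners of its list; filled blue circles are partners called at an adjusted p under 0.05, open circles are not, and vertical scatter within a line has no meaning. Of the partners Klhl5 lies furthest left, at -0.94, to the right of all 8 diamonds.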

How the data were processed

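RNA of 10 Neuro2a libraries was sequenced. The authors deposited raw read counts per gene, laid out as STAR writes them, with columns for unstranded counting and for each strand. The tools named in the submitters' processing notes are STAR 2.7.3a, bcl2fastq 2.20 and DESeq2, and the build is GRCm38. No annotation release is given there. The stranded columns were nearly equal, so the unstranded column was used, and overlapping genes on opposite strands cannot be told apart. The 4 entries that name no gene (25.0% to 28.2% of listed reads) and 4 plasmid entries stayed out of sizes and tests.

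Counts were fitted with edgeR 4.0.16 (TMM, filter on low counts by group, robust quasi-likelihood test, two-sided, Benjamini-Hochberg adjustment over all genes tested, threshold 0.05), in 1 fit per comparison and 1 over 10 libraries for the difference between the repressors. "Called" means past that threshold. The SE of a log2 fold change was derived from that test, as the size of the change divided by the square root of its F statistic. The scripts were tested on simulated data. DESeq2 1.42.0, limma-voom (limma 3.58.1), other scalings and filters, the strand column and leaving out each library were alternatives. Replicates differed by more than sampling noise (chi-square per degree of freedom 1.92 to 7.56). The zinc-finger fit had 2 residual degrees of freedom. In it 88.0% of genes took their spread wholly from the trend over all genes, and not from their own replicates.

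The 8 genes and all lists were chosen with earlier results of these data known. Named besides the 8 genes and Scn9a were the nearest tested neighbours, called neighbours and partners, closest paralogs, the 5 genes nearest in profile and those at the edge of the choice; Adam15's level, Cul3, Arhgef7, Mapt and Klhl24 were named beyond that rule, after their values were seen. Of 55401 listed genes, 55141 matched GENCODE M21 and 260 had no symbol. Likeness used log2(CPM + 0.5).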

Additional observations from a re-analysis of the deposited data

Results flagged for a closer look

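In the direct test over 10 libraries, whose 2 controls are unlike, edgeR called 3 of 178 tested partner genes. Their change with the zinc finger differed from that with dCas9: Klhl5 by -0.81, Klhl24 by 0.54 and Pak2 by -0.46 (log2, edgeR adjusted p 0.0018, 0.014 and 0.0218). That test called 0.907% of all 15766 genes, and no excess is read from the 3. Klhl5 was called in that test under all alternatives tried, whereas Klhl24 was not called without the first ZF-SCN9A library or either mCherry library or with the strand column, and Pak2 not with the strand column or without 3 of the libraries, 1 at a time.

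The deposited tables also list plasmid entries that no comparison used. The entry named ZF had 246775 and 178465 reads in the ZF-SCN9A libraries, 35 and 14 in the mCherry libraries and 0 in the dCas9 libraries. The entry named mCherry had 186301 and 216581 reads in the mCherry libraries, 59 and 11 in the ZF-SCN9A libraries, 7 in the first dCas9-empty library, 9 in the first dCas9-SCN9A library and 0 in the other dCas9 libraries. The entry named dCCas9 had 131446 to 155738 reads in dCas9-empty and 176550 to 200749 in dCas9-SCN9A, and the entry named dNCas9 had 81844 to 91766 and 54552 to 62672. Both were at 0 in the mCherry and ZF-SCN9A libraries.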

How the results depend on the processing

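For the control plasmids, the comparison that did not choose the 8 genes, their side of the threshold held in 107 of 112 alternatives. The repressor comparisons chose them, so their calls there under other settings are not counted as support. Counts over all genes moved more. Genes lower with ZF-SCN9A numbered 358, but 98 with DESeq2, 233 with all 10 libraries fitted, 174 with the strand column and 130 to 432 when a library was left out; those higher numbered 251, but 149 with no filter, 30, 115 and 109 under the same 3 settings, and 71 to 355. With dCas9-SCN9A 6 genes were called, but 172 with no filter, 28 with DESeq2, 29 with all 10 libraries, 13 with the strand column and 1 to 34 without a library. The difference between the repressors gave 143 calls, 274 with no filter and 71 to 241 without a library. The control comparison gave 5674, and 3585 to 5704 without a library. The median of the 8 genes with ZF-SCN9A ranged from -1.68 to -1.47 without a library.

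Neighbours called lower numbered 2, but 1 with plain library size or no filter, 0 with DESeq2, all 10 libraries or the strand column, and 0 to 3 without a library; neighbours called higher numbered 0, and 0 to 3 without a library. Partners called lower numbered 5, but 3 with DESeq2 and 4 to 9 without a library; those higher numbered 2, but 1 with no filter or all 10 libraries, 0 with DESeq2 or the strand column, and 0 to 4 without a library. A left-out library leaves 1 sample in an arm of the zinc-finger comparison, which is then assumed to vary like the other. The causes were not tested.

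By deviations from the group mean, each dCas9-SCN9A library correlated most with the dCas9-empty library of the same number (0.28, 0.19 and 0.06). Libraries of unlike number gave -0.25 to 0.11. In the zinc-finger arm like numbers gave 0.05 and unlike numbers -0.05. With 2 libraries per group those values are mirror images, so they cannot show pairing. Whether replicate numbers pair the samples was not tested. With the replicate block, dCas9-SCN9A gave 262 calls (6 without it) and the difference between the repressors 354 (143 without it). Neighbours called lower with ZF-SCN9A then numbered 1 (2 without it) and partners 8 (5 without it). With 4412097 gene counts in the shallowest library, changes of genes with few reads were less precise.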
